A study of Mus musculus with 12 samples.

Results

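The 5 genes described here encode MHC class I heavy chains and beta-2 microglobulin, and are B2m, H2-D1, H2-K1, H2-Q4 and H2-T10. They were chosen by name from a table of 7318 genes, as the rows called B2m, H2-D1, H2-K1, H2-M2 or H2-M3 or with names that begin with H2-Q or H2-T. H2-M2, H2-M3 and the other H2-Q and H2-T genes were not analysed here. Unsorted cells of female FVB/N mice, taken from mammary glands 3 to 5 and enriched for epithelium by short spins, gave 12 libraries in 4 groups of 3. The groups were RNA with AP20187, RNA with vehicle, ribosome footprints with AP20187 and ribosome footprints with vehicle. Every mouse carried both MMTV-Wnt1 and MMTV-iFgfr1 and was 4 weeks old, and treatment was intraperitoneal and lasted 6 h. The glands of all groups were then digested with collagenase for 2 h in cycloheximide, a drug that stalls ribosomes, so RNA and footprints reflect cells after that step too, and its part in the values was not tested. MMTV is a viral promoter active in mammary epithelium, so the vehicle cells carried the Wnt1 transgene too. AP20187 is a compound that pairs and so activates the inducible FGF receptor iFGFR1. No group had AP20187 without iFGFR1, so the compound and the receptor cannot be told apart. Nothing in the labels tells 1 mouse from pooled mice per library, and p-values therefore reflect the spread among these libraries alone, part of which may be technical.

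A class I molecule is a heavy chain held together with beta-2 microglobulin, and it shows peptides from inside the cell to CD8 T cells. The proteasome cuts these peptides, the TAP transporter carries them into the endoplasmic reticulum, and a loading complex fits them into the groove before the molecule goes to the surface. Nearly all nucleated cells, mammary epithelium included, make class I, and interferons raise the genes of the whole route. H2-K1 and H2-D1 are classical, highly variable heavy chains, whereas H2-Q4 and H2-T10 are non-classical class I genes.

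In the annotation of mm10 (GRCm38), B2m lies on chr2:122147686-122153083 on the plus strand, away from the heavy chains. H2-D1 (chr17:35262730-35267499, plus strand), H2-K1 (chr17:33996017-34000347, minus strand), H2-Q4 (chr17:35379617-35385290, plus strand) and H2-T10 (chr17:36115876-36121465, minus strand) lie in the H2 complex. The annotation gives H2-T10 as a polymorphic pseudogene, which means that some strains carry an intact copy. The heavy chains are near copies of each other. The aligned coding sequences of H2-D1 and H2-K1 were 91.4% identical, those of H2-K1 and H2-Q4 90.3%, and those of H2-D1 and H2-Q4 89.0%. H2-T10 was further away, with 73.1% identity to H2-D1. The stretch below is shown because H2-D1, H2-K1 and H2-Q4 hold the same 59 coding bases in it, so that a read from there cannot be given to a single gene. The capitals mark the 59 shared bases and the lower-case letters the 20 bases on each side.
H2-D1: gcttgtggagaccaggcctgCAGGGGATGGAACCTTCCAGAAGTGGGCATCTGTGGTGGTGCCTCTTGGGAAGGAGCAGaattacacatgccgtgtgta
H2-K1: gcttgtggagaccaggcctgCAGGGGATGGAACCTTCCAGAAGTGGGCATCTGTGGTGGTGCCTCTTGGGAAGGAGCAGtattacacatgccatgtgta
H2-Q4: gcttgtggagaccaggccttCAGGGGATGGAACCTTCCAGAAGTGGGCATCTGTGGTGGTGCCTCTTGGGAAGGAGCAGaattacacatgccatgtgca
These lines are from the mm10 transcripts, in the sense of the gene, and start at coding bases 759, 750 and 834 of H2-D1, H2-K1 and H2-Q4.

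Of the coding windows of 30 bases, about the length of a footprint, 42.5% of H2-D1, 32.3% of H2-K1, 39.4% of H2-Q4 and 58.4% of H2-T10 also occur in a transcript of another gene. For B2m the share was 0%, over 328 windows. The most frequent partner of H2-D1 was H2-K1, which holds 22.9% of the windows of H2-D1, and that of H2-T10 was H2-T22, which holds 52.1% of the windows of H2-T10. Over windows of 100 bases the shares fell to 9.42% for H2-D1, 7.51% for H2-T10 and 0% for H2-K1 and H2-Q4. No source used here says how reads that fit several genes were counted, so the split of counts among the heavy chains is uncertain. The mm10 genome is that of C57BL/6J, with the b haplotype of H2, whereas FVB/N mice carry the q haplotype. How many reads of the FVB/N alleles were lost or given to another gene was not tested.

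The promoters of the 4 genes found in the RefSeq table (GRCm38.p6) are shown because these genes were measured together and share motifs that are known from class I promoters. H2-T10 had no entry. Capitals mark matches on either strand to 6 patterns, and each line covers 170 bases in the sense of the gene.
B2m: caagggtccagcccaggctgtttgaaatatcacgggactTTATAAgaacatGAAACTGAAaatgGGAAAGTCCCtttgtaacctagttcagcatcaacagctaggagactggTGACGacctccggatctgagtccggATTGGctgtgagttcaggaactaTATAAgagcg
H2-D1: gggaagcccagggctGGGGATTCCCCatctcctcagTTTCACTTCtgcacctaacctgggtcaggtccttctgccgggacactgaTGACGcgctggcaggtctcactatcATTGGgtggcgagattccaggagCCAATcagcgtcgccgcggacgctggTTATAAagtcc
H2-K1: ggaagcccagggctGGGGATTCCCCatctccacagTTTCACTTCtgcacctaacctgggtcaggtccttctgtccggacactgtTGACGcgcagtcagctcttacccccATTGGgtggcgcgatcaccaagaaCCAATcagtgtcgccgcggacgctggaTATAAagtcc
H2-Q4: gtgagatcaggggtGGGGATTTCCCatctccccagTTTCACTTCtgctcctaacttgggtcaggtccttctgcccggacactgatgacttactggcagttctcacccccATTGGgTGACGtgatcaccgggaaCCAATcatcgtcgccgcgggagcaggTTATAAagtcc
These windows lie at chr2:122147497-122147666 for B2m (plus strand), chr17:35262908-35263077 for H2-D1 (plus strand), chr17:34000303-34000472 for H2-K1 (minus strand) and chr17:35379429-35379598 for H2-Q4 (plus strand). The interferon patterns searched were GAANNGAAA and GAAANNGAA, which can overlap, the others were the NF-kB consensus, TGACG of site alpha, CCAAT and TATAA, and matches to the NF-kB consensus can overlap each other. H2-D1, H2-K1 and H2-Q4 each hold GAANNGAAA on the minus strand, read in the sense of the gene as TTTCACTTC, with an NF-kB match just before it. B2m holds GAAANNGAA on the plus strand, with its NF-kB match just after it. The TGACG in the line of H2-Q4 is not at the same place as in H2-D1 and H2-K1. It lies between ATTGG and CCAAT in H2-Q4, and before both in H2-D1 and H2-K1. Among 32851 promoters of the table, each 300 bases long, 7.52% hold GAANNGAAA and 8.56% GAAANNGAA, 4.51% an NF-kB match, 20.8% TGACG, 37.4% CCAAT and 24.9% TATAA. A match is a description of letters, and no binding was measured. For H2-K1, for which the table has 2 starts, the window ends 44 bases after the listed RefSeq start used here. In the other genes it ends before the RefSeq start. The gene annotation given above starts H2-D1 earlier, at 35262730, so the window of H2-D1 lies within the gene as annotated there.

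RNA of all 5 genes averaged higher with AP20187 than with vehicle, and B2m and H2-D1 passed the test. B2m, the light chain that every class I molecule needs, was 1.97-fold higher and H2-D1 1.73-fold higher. H2-K1, the most abundant heavy chain, averaged 1.59-fold higher and did not pass. Levels are given in CPM, which express the count of a gene relative to the TMM-scaled size of its library and do not correct for gene length. The RNA libraries held 94513818 to 251874393 counts over the listed genes. Adjusted p-values are from the quasi-likelihood test of edgeR with Benjamini-Hochberg adjustment over all genes tested, with a threshold of 0.05.

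B2m stood at 1798, 929 and 1362 CPM in AP20187 RNA libraries 1, 2 and 3, against 569, 919 and 589 CPM in vehicle libraries 1, 2 and 3. The groups did not overlap, but AP20187 library 2 was barely above vehicle library 2. The log2 fold change was 0.98 ± 0.28 (SE) with an adjusted p of 0.0380 (edgeR).

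H2-D1, a classical heavy chain, had 1242, 819.6 and 925 CPM with AP20187 and 509, 678 and 536 CPM with vehicle. All AP20187 libraries were above all vehicle libraries, and the first AP20187 library was the highest. The log2 fold change was 0.79 ± 0.20 (SE) with an adjusted p of 0.0254 (edgeR).

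H2-K1, the other classical heavy chain, had 2589, 1518 and 2152 CPM with AP20187 and 1180.3, 1481 and 1280.0 CPM with vehicle. The groups did not overlap, although the second AP20187 library exceeded the second vehicle library only slightly. The log2 fold change of 0.67 ± 0.22 (SE) had an adjusted p of 0.0558 (edgeR).

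H2-Q4 had 1014, 676 and 671 CPM with AP20187 and 512, 584 and 629 CPM with vehicle, again without overlap and with the first AP20187 library far above the rest. Its log2 fold change was 0.45 ± 0.20 (SE), with an adjusted p of 0.123 (edgeR). H2-T10 was the lowest of the 5, at 102, 59.3 and 73.1 CPM with AP20187 and 47.5, 63.7 and 47.7 CPM with vehicle. Here the groups overlapped, because the second vehicle library was above the second AP20187 library. The log2 fold change of H2-T10 was 0.56 ± 0.22 (SE) with an adjusted p of 0.0921 (edgeR).

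**Figure D1:**
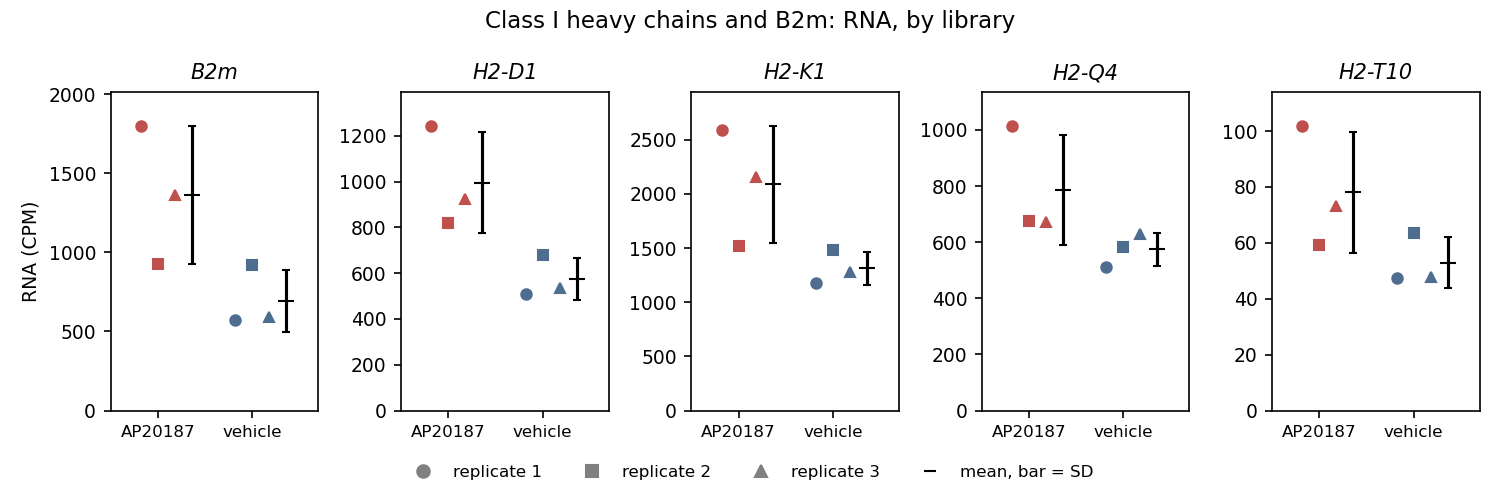
RNA level in CPM (vertical axis, one scale per gene, from 0) of each gene in the 3 AP20187 and 3 vehicle libraries, with the mean and SD of each group. AP20187 library 1 is the highest for every gene, and the groups overlap for H2-T10 alone.

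Thus 2 of 5 genes were called higher, where 12.4% of the 7314 genes tested were called higher and 13.9% lower. In 4 of 5 genes every AP20187 library was above every vehicle library, as was the case for 21.9% of all genes tested. The median log2 fold change of the 5 genes was 0.67, and that of all genes tested 0.01. The calls rest on single libraries. B2m and H2-D1 were both lost without AP20187 library 1 (adjusted p 0.115 and 0.0826, edgeR), without vehicle library 1 (0.125 and 0.0991) and without vehicle library 3 (0.140 and 0.104), and B2m alone without AP20187 library 3 (0.0559). Without AP20187 library 2, in contrast, 4 of the 5 genes were called, with H2-K1 at an adjusted p of 0.0159 and H2-T10 at 0.0303. Calls over all 7314 genes tested shifted too, from 1919 in either direction with all libraries. They numbered 782, 2214 and 1570 without AP20187 library 1, 2 and 3. Without vehicle library 1, 2 and 3 they numbered 717, 2040 and 538.

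Ordered by RNA per kilobase of annotated exons, the genes ran B2m, H2-K1, H2-D1, H2-Q4 and H2-T10 with either treatment. B2m averaged 1585 ± 505 CPM per kilobase with AP20187 and 805 ± 228 with vehicle (SD, n = 3 each). H2-K1 followed with 710.1 ± 183 CPM per kilobase with AP20187 and 447 ± 52.1 with vehicle. H2-D1 had 386 ± 85.3 CPM per kilobase with AP20187 and 223 ± 35.1 with vehicle, and H2-Q4 had 303 ± 75.7 and 221 ± 22.6. H2-D1 and H2-Q4 overlapped between libraries in both treatments, so their order is not set, whereas the lowest library of B2m was above the highest of H2-K1, and the lowest of H2-K1 above the highest of H2-D1, within each treatment. H2-T10 was far below at 22.8 ± 6.34 CPM per kilobase with AP20187 and 15.5 ± 2.72 with vehicle.

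Summed over H2-D1, H2-K1, H2-Q4 and H2-T10, heavy chain RNA averaged 3947 ± 943 CPM with AP20187 and 2516 ± 279 CPM with vehicle (SD, n = 3 each). For reads that were given to any of these 4 genes, the sum does not depend on the split among them. It can hold reads of genes not listed, and it lacks any reads that were dropped for fitting several genes. It was 4947, 3072 and 3821 CPM with AP20187 and 2249.5, 2806 and 2493 CPM with vehicle, with no overlap. The number of B2m counts per heavy chain count was 0.364, 0.302 and 0.357 with AP20187 and 0.253, 0.327 and 0.236 with vehicle. These ratios overlapped, so light and heavy chain RNA shifted by amounts that the libraries did not separate.

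Ribosome footprints, the fragments that ribosomes protect, gave no call for any of the 5 genes without a term for the replicate number, and called H2-D1 with it. The footprint libraries were shallower, at 1772969 to 11018709 counts. Footprints of B2m and H2-K1 averaged slightly higher with AP20187, H2-Q4 was level, and H2-D1 was several-fold higher on very few counts.

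B2m footprints stood at 7047, 4480.5 and 1817 CPM in AP20187 libraries 1, 2 and 3 and at 4659, 2740.0 and 1952 CPM in vehicle libraries 1, 2 and 3. The groups overlapped widely, and library 3 was the lowest with either treatment. The log2 fold change was 0.51 ± 0.47 (SE), with an adjusted p of 0.660 (edgeR).

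H2-K1 footprints were 1163, 528 and 667 CPM with AP20187 and 867, 410.1 and 716 CPM with vehicle, with overlap and a log2 change of 0.24 ± 0.37 (SE), at an adjusted p of 0.821 (edgeR). H2-Q4 footprints were 1013, 368 and 442 CPM with AP20187 and 707, 473 and 647 CPM with vehicle. For H2-Q4, too, the groups overlapped, since AP20187 libraries 2 and 3 lay below all vehicle libraries and the first above them. Its log2 fold change was 0.00 ± 0.38 (SE, adjusted p 1.00, edgeR). H2-T10 had only 156, 33 and 17 footprint counts with AP20187 and 21, 11 and 7 with vehicle. Scaled to library size these overlapped, at 14.6, 10.1 and 4.51 CPM with AP20187 and 11.5, 6.00 and 1.83 CPM with vehicle, and the log2 fold change was 0.66 ± 0.77 (SE, adjusted p 0.756, edgeR).

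H2-D1 had 156, 96 and 25 footprint counts in AP20187 libraries 1, 2 and 3, against 8, 5 and 3 in vehicle libraries 1, 2 and 3. In CPM these were 14.6, 29.4 and 6.64 with AP20187 and 4.38, 2.73 and 0.785 with vehicle. Every AP20187 library was above every vehicle library, but the counts were small. The exact Poisson 95% interval was 4.30 to 9.80 CPM for AP20187 library 3 and 1.89 to 8.63 CPM for vehicle library 1, so these neighbours overlapped in counting error alone. Vehicle library 3, with its 3 counts, had an interval of 0.162 to 2.30 CPM. The log2 fold change of 2.77 ± 0.81 (SE) had an adjusted p of 0.106 without the replicate block (edgeR), and with it, at 2.68 ± 0.75, of 0.0365. Intervals cover counting error only.

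**Figure D2:**
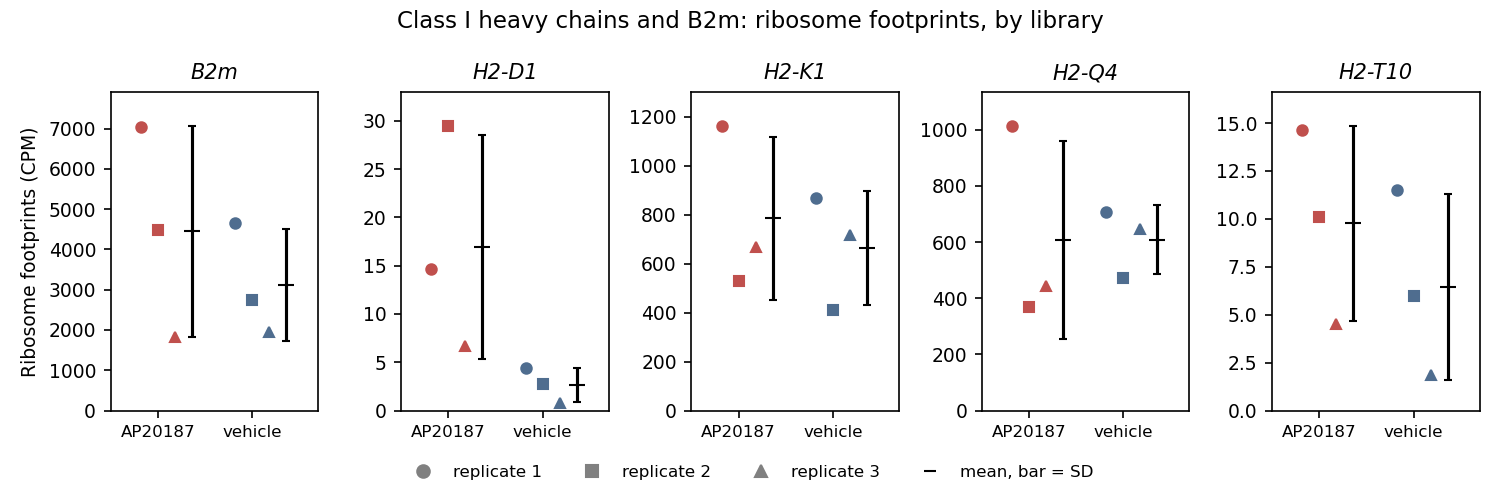
Ribosome footprint level in CPM (vertical axis, one scale per gene, from 0) of each gene in the 3 AP20187 and 3 vehicle libraries, with the mean and SD of each group. Only the H2-D1 panel shows no overlap, at levels of at most 29.4 CPM, whereas B2m reaches 7047 CPM.

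Without the block 0 of 5 genes were called, where 0.937% of 7041 genes were called higher and 1.6% lower. An unadjusted p under 0.05 was found for 1 of the 5 and for 1160 of the 7041 genes (edgeR). Same-numbered footprint libraries deviated together when scaled within footprints, but those numbered 1 did not when scaled with RNA, so the pairing behind the block is uncertain. With the block 1 of 5 was called, where 5.01% of genes were called higher and 5.14% lower. In 1 of 5 genes every AP20187 library was above every vehicle library, against 11.4% of all genes tested. Summed heavy chain footprints were 2205, 936 and 1121 CPM with AP20187 and 1590.0, 892 and 1365 CPM with vehicle, and these overlapped. B2m footprint counts per heavy chain footprint count were 3.20, 4.79 and 1.62 with AP20187 and 2.93, 3.07 and 1.43 with vehicle, and these overlapped as well.

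The heavy chains, close as they are in sequence, differed widely in how many footprints they had for their RNA. The ratio of footprint to RNA counts was taken in same-numbered libraries and set against the median gene of that pair, on the log2 scale, where 0 is the median gene. H2-D1 stood at -6.29, -4.68 and -6.97 with AP20187 and at -6.61, -7.70 and -9.08 with vehicle. It was the gene with the 31st lowest mean ratio of 7315. H2-T10 was also low, at -2.68, -2.41 and -3.85 with AP20187 and -1.85, -3.23 and -4.49 with vehicle, and ranked 197th from the lowest.

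H2-K1 lay under the median gene in every pair, with ratios of -1.04, -1.41 and -1.57 with AP20187 and -0.28, -1.73 and -0.73 with vehicle. By its mean ratio it ranked 1147th from the lowest. H2-Q4 lay about level with the median gene, at 0.11, -0.76 and -0.48 with AP20187 and 0.63, -0.18 and 0.15 with vehicle. B2m was above it in every pair, at 2.08, 2.39 and 0.54 with AP20187 and 3.20, 1.69 and 1.84 with vehicle, and ranked 223rd from the highest. For none of H2-K1, H2-Q4, H2-T10, B2m and H2-D1 did the treatments separate without overlap. Of the heavy chain counts, H2-D1 made up 24.2% to 26.7% of RNA with AP20187 and 21.5% to 24.2% with vehicle, but only 0.592% to 3.15% of footprints with AP20187 and 0.0575% to 0.306% with vehicle.

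Of its 30-base windows, H2-D1 holds 608 of 1057 alone, H2-K1 730 of 1078, H2-Q4 626 of 1033 and H2-T10 461 of 1108. These windows are those of the mm10 sequence, not of the FVB/N alleles. Poly(A) RNA is read over the whole transcript and footprints mainly over the coding part, and no source used here says over which region footprints were counted. The part of read assignment and of the FVB/N alleles in these ratios was not tested.

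H2-Bl, a further class I gene of the complex that the rule did not take and that was picked out after its values were seen, showed the opposite. It had 17.7, 10.4 and 13.0 CPM of RNA with AP20187 and 9.51, 11.1 and 11.2 CPM with vehicle, yet 377, 181 and 182 CPM of footprints with AP20187 and 306, 239 and 178 CPM with vehicle. Its footprint to RNA ratio was 4.52, 4.24 and 3.93 with AP20187 and 5.17, 4.55 and 4.11 with vehicle, the 51st highest of 7315 genes. Of its windows of 30 bases, 8.49% occur in another gene. The annotation gives it, like H2-T10, as a polymorphic pseudogene (chr17:36080115-36084223, minus strand).

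**Figure D3:**
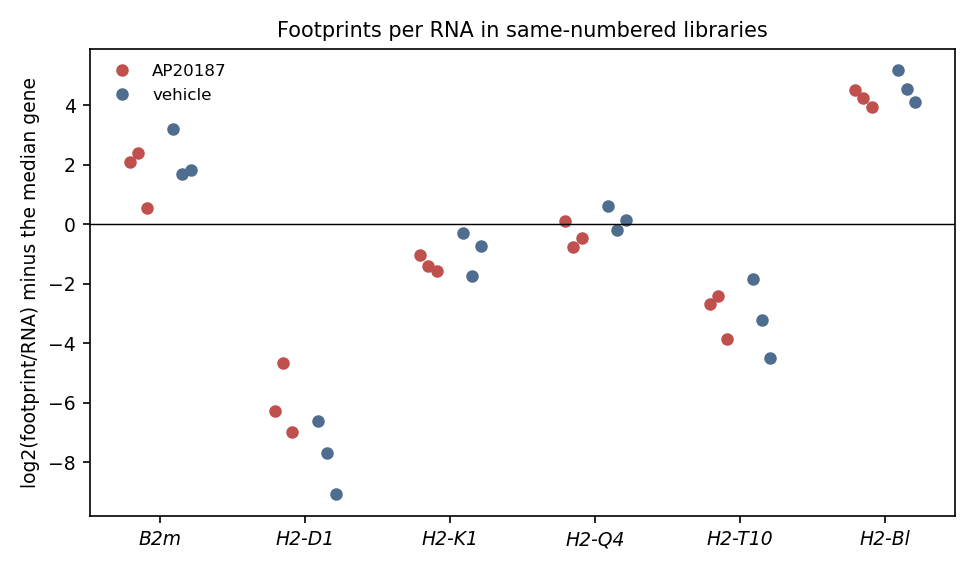
Log2 ratio of footprint to RNA counts minus that of the median gene (vertical axis) in each same-numbered pair of libraries, AP20187 left of vehicle for each gene. H2-D1 lies between -9.08 and -4.68, and H2-Bl between 3.93 and 5.17.

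Translational efficiency, footprints relative to RNA, tested in a single fit of all 12 libraries, was called for 0 of 5 genes and for 0% of 7315 genes (edgeR). At an unadjusted p under 0.05 there were 350 genes, and DESeq2 called 10 genes. The change in efficiency was 2.01 ± 0.72 (SE, log2) for H2-D1, the one of the 5 with an unadjusted p under 0.05, at an adjusted p of 0.985 (edgeR). It was -0.53 ± 0.61 for B2m, -0.48 ± 0.47 for H2-K1, -0.51 ± 0.47 for H2-Q4 and 0.16 ± 0.69 for H2-T10. The SEs of 0.47 to 0.72 were of the size of the RNA changes, 0.45 to 0.98.

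**Figure D4:**
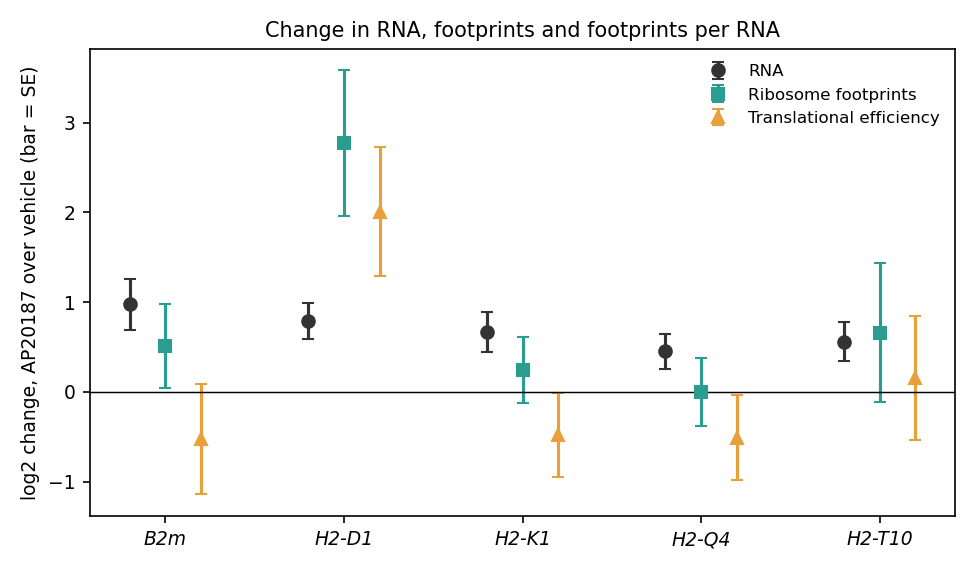
Log2 change, AP20187 over vehicle, in RNA, ribosome footprints and translational efficiency (vertical axis) for each gene, with bars of 1 SE. The RNA changes lie between 0.45 and 0.98, and H2-D1 alone has a footprint change, 2.77, well away from 0.

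The genes that feed the class I molecule were followed in lists of the pathway. For each list, the share to set beside its RNA calls is that of all genes tested, 12.4% higher and 13.9% lower. Where a library is left out, the RNA calls over all genes are those given above. Of 8 genes of peptide loading, 5 rose in RNA and 0 fell, with a median log2 fold change of 0.59 against 0.01 for all genes. Tap1, a subunit of the peptide transporter, had 469.8, 181 and 195 CPM with AP20187 and 116, 128 and 132 CPM with vehicle, a log2 change of 1.17 ± 0.34 (SE), at an adjusted p of 0.0392 (edgeR). Tap2, its partner, had a log2 fold change of 0.65 ± 0.20 (adjusted p 0.0475, edgeR). The first AP20187 library was the highest for both, and all AP20187 libraries were above the vehicle libraries.

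Pdia3, the thiol oxidoreductase of the loading complex, had 873, 956 and 1061 CPM with AP20187 and 508, 657 and 521 CPM with vehicle (0.78 ± 0.16 log2, adjusted p 0.0145, edgeR). Calr, the chaperone calreticulin, changed by 0.54 ± 0.15 (adjusted p 0.0319, edgeR) and Tapbpl, a peptide editor related to tapasin, by 0.77 ± 0.18 (adjusted p 0.0209, edgeR). For Pdia3 and Calr the first AP20187 library was the lowest of its group, unlike for the class I genes. Tapbp, which encodes tapasin, Canx, the chaperone calnexin, and Erap1, a peptide-trimming aminopeptidase, did not pass. The list had 2 calls without AP20187 library 1 and 0 without vehicle library 1 or vehicle library 3.

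Of 5 genes of the immunoproteasome and its PA28 activator, 2 rose in RNA and 0 fell, against 12.4% and 13.9% of all genes tested. Psmb8 had 179, 98.4 and 102 CPM with AP20187 and 51.7, 77.4 and 44.4 CPM with vehicle, a log2 fold change of 1.13 ± 0.29 (adjusted p 0.0254, edgeR). Psmb9 changed by 1.30 ± 0.35 (adjusted p 0.0304, edgeR). Both encode catalytic subunits that replace those of the ordinary proteasome, and in both all AP20187 libraries were above all vehicle libraries. Psmb10, the remaining such subunit, was at 0.64 ± 0.21 (adjusted p 0.0556, edgeR), and Psme1 and Psme2 of PA28 did not pass. None of the 5 was called without AP20187 library 1, vehicle library 1 or vehicle library 3.

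Of 11 regulators of class I transcription in the table, 1 rose and 2 fell, where 12.4% of all genes tested were called higher and 13.9% lower. These counts do not set the list apart from all genes. Nfya, a subunit of the factor that binds CCAAT, fell by 0.55 on the log2 scale (adjusted p 0.0455, edgeR), and so did Rela, a subunit of NF-kB (adjusted p 0.0488, edgeR). Nfya and Rela were each lost in 4 or more of the 6 refits that left out a library. Nlrc5, Rfxank, Irf1 and Irf2 were not analysed here.

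Fcgrt, which encodes the heavy chain of the neonatal Fc receptor and also pairs with beta-2 microglobulin, went the other way. Its RNA was 15.7, 25.9 and 13.2 CPM with AP20187 and 45.0, 42.2 and 54.3 CPM with vehicle. The groups stood well apart, with a log2 fold change of -1.37 ± 0.26 (adjusted p 0.0109, edgeR), and the call held without any single library. Fcgrt footprints were 19.0, 32.5 and 15.1 CPM with AP20187 and 55.8, 72.0 and 92.7 CPM with vehicle, a log2 fold change of -1.74 ± 0.37 (adjusted p 0.0384, edgeR), and this call was kept only in the refit without AP20187 library 2. Cd1d1, a lipid-presenting partner of B2m, had a log2 fold change of -0.07 ± 0.27 in RNA (adjusted p 0.869, edgeR).

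Of 5 class II genes, which present peptides to CD4 T cells mainly in antigen-presenting cells, 0 passed in RNA (edgeR), 1 had an unadjusted p under 0.05 and DESeq2 called 1. Of all 7314 genes tested in RNA, 2990 had an unadjusted p under 0.05 (edgeR), and DESeq2 called 2491 genes. H2-Ab1, a class II beta chain, had 81.5, 94.1 and 52.4 CPM with AP20187 and 76.3, 155 and 118 CPM with vehicle, a log2 fold change of -0.61 ± 0.29 (adjusted p 0.147, edgeR). Its footprints were 121, 138 and 48.3 CPM with AP20187 and 192, 257 and 229 CPM with vehicle. Those did not overlap, and the log2 fold change was -1.14 ± 0.36 with an adjusted p of 0.133 without the block and -1.25 ± 0.28 with 0.00986 with it (edgeR). Within the edgeR fits, Cd74, the class II invariant chain, was likewise called lower in footprints only with the block (-0.80 ± 0.24, adjusted p 0.0482, edgeR). DESeq2, without the block, called 1 class II gene lower in footprints, and 320 genes lower over all genes.

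Of 35 interferon-stimulated genes in the table, 20 rose in RNA and 0 fell, against 12.4% and 13.9% of all genes tested. Their median log2 fold change was 1.86. Those with the smallest p were Igtp (2.93 ± 0.52), Gbp4 (3.08 ± 0.59), Zbp1 (2.22 ± 0.44), Oas1a (2.62 ± 0.54), Bst2 (1.44 ± 0.32) and Oas2 (3.04 ± 0.71). Igtp, an immunity-related GTPase, had 611, 137 and 193 CPM with AP20187 and 41.1, 45.1 and 37.3 CPM with vehicle (adjusted p 0.00889, edgeR). The number called was 13 without AP20187 library 1 and 30 without AP20187 library 2, and it was 5, 9 and 2 without vehicle libraries 1, 2 and 3.

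In footprints without the block, 0 genes of peptide loading, of the immunoproteasome list and of the regulators were called, and 3 of 34 interferon-stimulated genes, namely Igtp, Oas3 and Gbp2. With the block, Tap1 (0.76 ± 0.22, adjusted p 0.0398), Psmb8 (0.88 ± 0.20, adjusted p 0.0112) and Psmb9 (0.86 ± 0.23, adjusted p 0.0301) were called higher in footprints too (edgeR), and so were 17 interferon-stimulated genes. Over all genes tested, 0.937% were called higher in footprints without the block and 5.01% with it. Psmb8 footprints were 361, 239 and 254 CPM with AP20187 and 172, 151 and 136 CPM with vehicle, with no overlap.

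The class I genes and the interferon-stimulated genes were high in the same libraries. Relative to the mean of the vehicle libraries, the median of the 5 genes stood at 0.99, 0.24 and 0.70 on the log2 scale in AP20187 RNA libraries 1, 2 and 3, and at -0.16, 0.25 and -0.09 in vehicle libraries 1, 2 and 3. The median of the 35 interferon-stimulated genes stood at 2.80, 0.46 and 1.14 with AP20187 and at -0.11, 0.10 and 0.03 with vehicle. In both, AP20187 library 1 was the highest and AP20187 library 2 the lowest of its group. For the 5 genes the median of AP20187 library 2 was level with that of vehicle library 2, although B2m, H2-D1, H2-K1 and H2-Q4 were each higher in the AP20187 library. The deepest libraries of either treatment were those numbered 1, at 237015762 counts with AP20187 and 251874393 with vehicle.

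**Figure D5:**
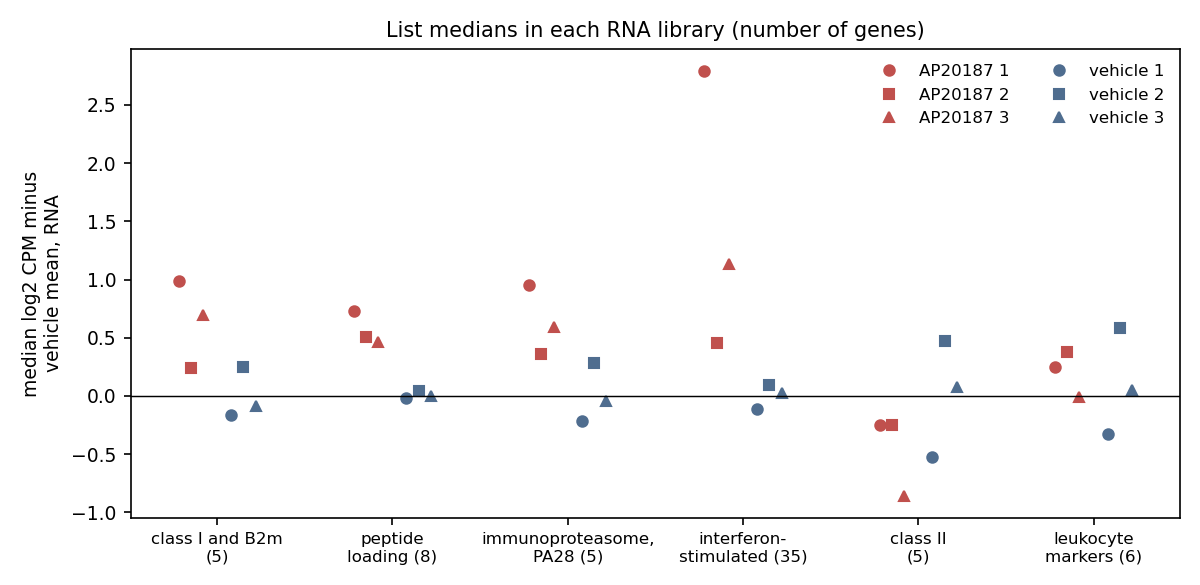
Median log2 CPM of the genes of a list, minus the mean of the vehicle libraries (vertical axis), in each RNA library, AP20187 left of vehicle. AP20187 library 1 is at 0.99 for class I and B2m and at 2.80 for the interferon-stimulated genes, and AP20187 library 2 at 0.24 and 0.46.

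By the root mean square difference of centred log2 CPM over the 6 RNA libraries, the genes with the pattern nearest to the mean of the 5 were Psmb10 (0.0626), Nmi (0.0702), Ifi35 (0.0947), Mlycd (0.106) and Ifitm3 (0.120). The median over all genes was 0.472. Of these nearest genes, Ifitm3 was called higher, with a log2 fold change of 0.80 ± 0.20 (adjusted p 0.0261, edgeR). Each of the 5 is itself part of this mean, which makes its own distance smaller. Even so, the class I genes and B2m did not all lie close to their own mean. H2-K1 (0.0698), H2-D1 (0.0726) and H2-T10 (0.0771) did, but H2-Q4 (0.191) and B2m (0.196) were farther from it than the nearest genes named.

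Markers of other cell types moved with the treatment. Of the marker lists, 6 of 7 luminal genes rose in RNA and 1 fell, whereas 4 of 4 endothelial, 4 of 5 fibroblast and 2 of 3 adipocyte genes fell, and of 7 basal genes 1 rose and 3 fell. Among all genes tested, 12.4% were called higher in RNA and 13.9% lower. Summed fibroblast marker RNA, for example, was 979 to 1484 CPM with AP20187 and 2819 to 5228 CPM with vehicle. In such bulk samples, fewer cells of a type and less RNA per cell cannot be told apart. Leukocytes express class I strongly, and 6 of 27 leukocyte markers were in the table, with T, B and NK cell markers not analysed here. Their summed RNA was 1160.4 to 1447 CPM with AP20187 and 405 to 922 CPM with vehicle, and 2 of 6 rose and 0 fell. The 2 that rose were Cd14 (1.42 ± 0.35 log2, adjusted p 0.0226, edgeR), which made up most of the sum, and Itgam (1.01 ± 0.27, adjusted p 0.0310, edgeR). The sum therefore mainly follows Cd14, at 1353, 1043 and 1329 CPM with AP20187 and 397, 735 and 259 CPM with vehicle. Which cells carried the Cd14 RNA was not tested, so the sum is not a measure of leukocytes. Ptprc, which encodes the pan-leukocyte protein CD45, had 28.9, 39.8 and 21.7 CPM with AP20187 and 28.0, 82.8 and 64.7 CPM with vehicle, a log2 fold change of -0.96 ± 0.38 (adjusted p 0.0957, edgeR). Coro1a (-1.09 ± 0.47, adjusted p 0.117, edgeR) and Cd68 (-0.41 ± 0.20, adjusted p 0.159, edgeR) also averaged lower. Itgax averaged higher (0.80 ± 0.26, adjusted p 0.0535, edgeR). The part of these cells in the class I changes was not tested.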

How the data were processed

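RNA and ribosome footprints were counted in mammary gland cells from AP20187-treated and vehicle-treated mice, with 3 libraries per group. The authors deposited raw counts per gene symbol for 7318 genes, and no source used here says how these genes were chosen. The submitters' processing notes name build mm10 and the tools STAR, Bowtie2, HTSeq, cutadapt and bcl2fastq 1.8.3, without roles or settings. Totals are counts over the listed genes, not full depths.

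CPM and tests were computed from the counts with edgeR 4.0.16 in R 4.3.3: filterByExpr (minimum count 10), TMM and the quasi-likelihood test, 2-sided, with Benjamini-Hochberg adjustment and a threshold of 0.05. RNA and footprints were fitted separately, and translational efficiency as the interaction in a fit of all 12 libraries. SEs come from the F statistic. Log2 CPM used a prior count of 2, and footprint to RNA ratios added 0.5 to each count. DESeq2 1.42.0, other scalings, no filter, the replicate block and leaving out each library were the alternatives. The procedure was tested on simulated counts.

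The genes and the gene lists were chosen with earlier results of these data known. A gene of the regulator list is counted but not reported by name here. From each list, genes called in RNA or footprints were named, at most 6 by smallest RNA p, beside all 5 members and the 5 genes nearest in pattern. H2-Bl and the leading class II and unpassed list genes were added after their values were seen.

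Replicate numbers come from the titles, and nothing in the labels says that they mark a shared animal or day. The correlation of deviations from the group means between same-numbered AP20187 and vehicle libraries, over genes, was 0.152, 0.255 and 0.334 for footprints and 0.182, -0.05 and -0.10 for RNA, for numbers 1, 2 and 3. Footprint libraries, all above 0.1, were therefore treated as paired where the replicate block is named, and RNA libraries were not. This rests on the scaling: with log2 CPM computed over all 12 libraries together, the footprint correlations were -0.002, 0.209 and 0.165, and number 1 did not pair. Sequences were read from the mm10 transcripts of GENCODE M21 and from RefSeq promoters with Python 3.11.15 and Biopython 1.88.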

Additional observations from a re-analysis of the deposited data

How the results depend on the processing

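RNA calls depended on single libraries: leaving out 1 library at a time gave 0 to 4 of the 5 genes (the heavy chains and B2m) called, against 2 with all libraries, and 3 to 43 pathway genes, against 31. RNA libraries were not treated as paired by number, although the labels do not say whether they are. A replicate block in RNA gave 0 of the 5 (B2m 0.100 and H2-D1 0.0644, adjusted p, edgeR) and 11 pathway genes. DESeq2 called H2-K1 in RNA as well (adjusted p 0.00838). Over all genes, RNA calls numbered 1919, 1281 with the block, 2491 with DESeq2 and 538 to 2214 without 1 library. In footprints, the members called were 1 with DESeq2 (H2-D1, adjusted p 0.0129) and 1 with the replicate block, against 0. The pathway genes called in footprints were 15 with DESeq2, 24 with the block and 0 to 9 without 1 library, against 4. Over all genes, footprint calls numbered 179, 715 with the block and 538 with DESeq2, and they fell to 0 without vehicle library 1 or 2, to 3 without vehicle library 3 and to 2 without AP20187 library 1. The H2-Q4 footprint change turned from 0.00 to 0.0156 with library totals and to 0.0098 with no filter, and ranged from -0.58 to 0.26 without 1 library. Without 1 library the footprint change ranged from 0.02 (without AP20187 library 1) to 0.93 (without vehicle library 1) for B2m, 2.10 (without AP20187 library 2) to 3.41 (without vehicle library 1) for H2-D1, -0.15 to 0.48 for H2-K1 and 0.18 to 1.43 for H2-T10. The efficiency change ranged from -0.96 to -0.05 for B2m, 1.43 to 2.70 for H2-D1, -0.80 to -0.17 for H2-K1, -1.02 to -0.24 for H2-Q4 and -0.35 to 1.00 for H2-T10. The 5 RNA changes kept their direction under every alternative listed here. A block of same-numbered RNA and footprint libraries left 0 efficiency calls. The cause of these shifts was not tested. Footprints of H2-D1 and H2-T10, with 3 to 156 counts per library, limit what can be said of both.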
